A study of Mus musculus with 6 samples.

Results

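Collagen genes were taken as all listed genes whose symbol is Col, a number, a and a number, such as Col6a1, and they describe how mouse bone marrow stromal cells (BMSCs) express their collagens with and without retinoic acid. There were 42 such genes among 25722 listed. Of these, 29 passed the filter on low counts, as did 13842 genes in all. The choice used the names alone and no measured value. Col9a1 and Col13a1 were not analysed here.

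Collagens are secreted proteins whose chains wind into triple helices of fixed chain make-up, so that a chain is usually of use only with its partners. Fibrillar collagens (types I, II, III, V, XI) build the fibrils of bone, cartilage and soft tissue, collagen IV forms the sheet of basement membranes, and collagen VI forms beaded filaments around cells. FACIT collagens decorate fibrils, multiplexins (types XV and XVIII) lie beside basement membranes, and stromal cells of the marrow are a main maker of fibrillar collagen there. Retinoic acid, the active form of vitamin A, acts through nuclear receptors that bind DNA.

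The study sequenced RNA of wild-type C57BL/6 BMSCs kept with the solvent DMSO or with all-trans retinoic acid (ATRA), to ask how the retinoid alters their transcripts. There were 3 DMSO libraries and 3 ATRA libraries, called DMSO1 to DMSO3 and ATRA1 to ATRA3. All were cultured in 5% O2 and 5% CO2 with 20% fetal bovine serum and 10 µM ROCK inhibitor. By the labels the ATRA dose was 1 µM and treatment lasted 48 h, whereas the study's methods text gives a lower dose and a shorter time. The labels speak of biological replicates but of fewer than were deposited, and neither the labels nor the methods say which libraries came from separate cultures, so p-values measure the spread between these libraries, which may be technical. No age is given for the mice.

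The libraries held between 14737636 and 18511905 counts, so that 3 counts equalled 0.16 to 0.21 CPM (counts scaled to a common library size by TMM). An earlier look at these data found that DMSO2, ATRA1 and ATRA2 (library set 1) stand apart from DMSO1, DMSO3 and ATRA3 (library set 2), a division that no label gives. Values within the sets are therefore printed beside the pooled ones, although set 1 holds 1 DMSO library and set 2 holds 1 ATRA library. The cells were labelled as mesenchymal stem cells, yet the 14 macrophage markers listed summed to between 20925 and 23184 CPM with DMSO and between 20512 and 21788 CPM with ATRA, and all 14 passed the filter. The 13 mesenchymal markers summed to between 625 and 922 CPM with DMSO and between 717 and 1006 CPM with ATRA. Of these, Thy1 and Nt5e did not pass the filter. In bulk RNA, fewer collagen-making cells and less collagen RNA per cell cannot be told apart.

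Of the 29 tested collagen genes, 21 had a fold change below 0, with the 3 tested chains of collagen VI, Col5a1 and Col2a1 lower in all 3 ATRA libraries than in any DMSO library, and with Col14a1 standing higher. The 3 main chains of collagen VI differed by -0.95, -1.17 and -1.38 on the log2 scale. Basement membrane collagen Col4a1 and Col4a2 differed by 0.07 and 0.02, and by -0.23 and -0.30 once the library sets were taken into account. No collagen gene passed the test across all genes without a covariate (edgeR's quasi-likelihood test, adjusted p under 0.05 and at least 1.5-fold), and the smallest adjusted p of a member in edgeR was 0.233. Once the library set entered the fit as a covariate (the set-adjusted fit), 6 collagen genes were called lower in edgeR (Col2a1, Col5a1, Col5a3, Col6a1, Col6a2 and Col6a3) and 1 was called higher (Col14a1), where 0.795% and 0.744% of all tested genes were. The sets were found in these same data, so all p-values and calls of the set-adjusted fit may be too favourable. The 6 became 2 to 10 when 1 library was left out of that fit, and Col2a1, Col5a1 and Col5a3 were called in only 2 of the 6 such fits.

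Collagen counts as a whole made up 0.309% of all counts in DMSO1, 0.669% in DMSO2 and 0.330% in DMSO3. They made up 0.471% in ATRA1, 0.288% in ATRA2 and 0.188% in ATRA3. The exact (Clopper-Pearson) 95% interval of each share reaches no more than 0.0037 percentage points to either side and covers counting error only. The 2 groups overlapped, since ATRA1 lay above DMSO1 and DMSO3. Inside each library set every ATRA library lay below every DMSO library. Within the collagen counts, the share of Col1a1 stayed between 20.1% and 25.0% and that of Col1a2 between 20.1% and 21.1% in all 6 libraries, whereas Col2a1 took 3.51% to 4.37% with DMSO and 1.91% to 2.21% with ATRA.

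Across the 29 tested collagen genes the median log2 fold change (ATRA minus DMSO) was -0.57, and over all tested genes it was -0.02. Without DMSO2 the collagen median was -0.22. The difference lay below 0 for 21 of the 29 (72.4%), and for 52.7% of all tested genes. At an unadjusted p under 0.05 in edgeR, 10 collagen genes (34.5%) stood lower and 2 (6.9%) higher, where 2.36% and 2.89% of all tested genes did so. The 3 ATRA libraries all lay below the 3 DMSO libraries for 10 collagen genes (34.5%) and all above for 2 (6.9%), and over all tested genes these shares were 6.87% and 5.71%. The share of all tested genes called in edgeR without a covariate was 0.00722% lower and 0.0361% higher, against 0 of 29 members in either direction.

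The library sets changed how many collagen genes were called. In the set-adjusted fit, the collagens had a median of -0.71, and all tested genes one of -0.00407. With 1 library left out of that fit, the collagen median ranged from -0.79 without ATRA1 to -0.465 without DMSO2. The 6 called lower were 20.7% of the 29, where 0.795% of all tested genes were called lower, and the 1 called higher was 3.45%, where 0.744% were. In both sets at once, every ATRA library lay below every DMSO library of its own set for 20 collagen genes (69%), against 23.5% of all tested genes, and above for 2 (6.9%), against 18.5%. DESeq2 without a covariate called Col6a2 and Col6a3 lower (6.9% of members, 0.275% of all tested genes) and Col14a1 higher (3.45% of members, 0.708% of all tested genes). When 1 library at a time was left out of the covariate fit, Col6a1 and Col6a2 were called in 6 of 6 fits, Col14a1 in 5, Col6a3 in 3, and Col2a1, Col5a1 and Col5a3 in 2. The count of members called lower ranged from 2 (without DMSO1, DMSO3 or ATRA3) through 3 (without DMSO2) and 9 (without ATRA1) to 10 (without ATRA2), and leaving out DMSO2 removed the call of Col14a1. Over all tested genes the number called lower moved likewise, at 15 without DMSO1, 16 without DMSO2, 19 without DMSO3, 29 without ATRA3, 101 without ATRA1 and 223 without ATRA2. Those called higher numbered 21 without DMSO1, 39 without DMSO2, 31 without DMSO3, 33 without ATRA3, 91 without ATRA1 and 197 without ATRA2. Without DMSO2 or ATRA3, only 1 of the sets held both treatments.

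**Figure D1:**
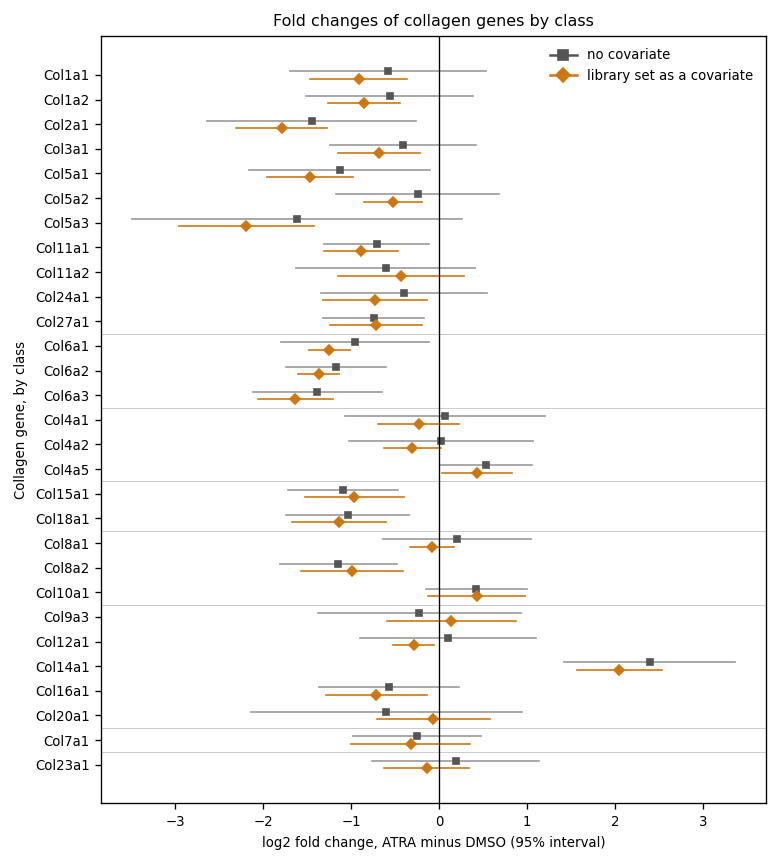
Log2 fold change (ATRA minus DMSO) of each tested collagen gene, with classes parted by lines in the order fibrillar, collagen VI, collagen IV, multiplexin, short-chain, FACIT, Col7a1 and Col23a1; squares give the fit without a covariate, diamonds the set-adjusted fit, and bars 95% intervals. The 11 fibrillar genes and the 3 collagen VI genes all lie left of 0, and Col14a1 lies farthest to the right at 2.40.

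Per kilobase of transcript, the collagens of the fibril stood highest. Over the 6 libraries the mean level was 148 CPM per kb for Col1a1 and 145 for Col1a2, the chains of collagen I, the main fibril of bone and skin. Col3a1, whose fibrils run with collagen I in soft tissue, followed at 78.7 CPM per kb. Below these came Col6a1 at 35.6, Col5a2 at 33.9, Col4a1 at 32.6 and Col5a1 at 29.5 CPM per kb, which differed by less than the spread between libraries of a group. At the foot of the tested genes stood Col15a1 at 0.409 and Col24a1 at 0.390 CPM per kb. In the DMSO libraries Col5a1 stood above Col5a2 (40.5 against 36.7 CPM per kb), and in the ATRA libraries below it (18.5 against 31.0).

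**Figure D2:**
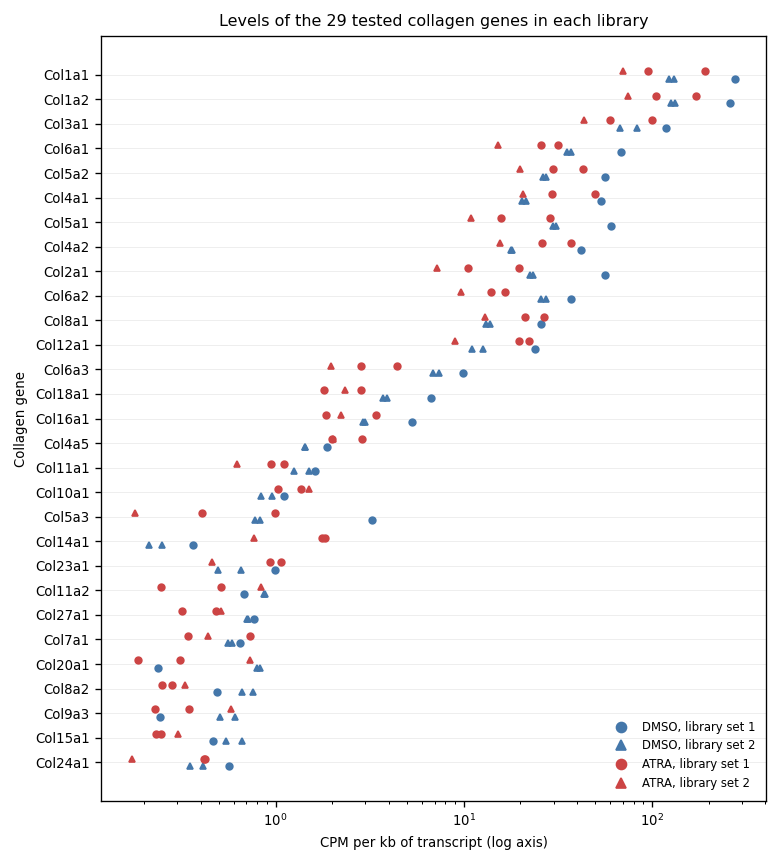
Level of each of the 29 tested collagen genes in CPM per kilobase of transcript on a log axis, in every library; colour gives the group and shape the library set. Genes run from Col1a1 at 148 to Col24a1 at 0.390 on average, and the DMSO library of set 1 (DMSO2) is the highest of the 6 for Col1a1, Col1a2, Col3a1 and Col5a1.

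Of the fibrillar collagens, all 11 passed the filter and all 11 had a fold change below 0, with a median of -0.61, or -0.85 in the set-adjusted fit. In both library sets, every ATRA library lay below every DMSO library for 11 of 11, against 23.5% of all tested genes. Their summed level was 2346, 4919 and 2545 CPM in DMSO1 to DMSO3 and 3256, 1860 and 1331 CPM in ATRA1 to ATRA3, so that the pooled groups overlapped through ATRA1. Without a covariate, 4 stood lower at an unadjusted p under 0.05 in edgeR (Col2a1, Col5a1, Col11a1 and Col27a1), against 2.36% of all tested genes, and none was called.

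Collagen I is a trimer of Col1a1 and Col1a2 chains. Col1a1 (chromosome 11, 94936224 to 94953042, GRCm38) measured 732, 1648 and 779 CPM in DMSO1 to DMSO3 and 1131, 563 and 414 CPM in ATRA1 to ATRA3. Its groups overlapped, with DMSO2 highest and ATRA1 above the other DMSO libraries. The fold change on the log2 scale was -0.58 ± 0.47 (SE), with an edgeR adjusted p of 0.803, and in the set-adjusted fit it was -0.91 ± 0.24, with an edgeR adjusted p of 0.138. Col1a2 (chromosome 6, 4504814 to 4541544) measured 673, 1390 and 712 CPM with DMSO and 918, 564 and 398 CPM with ATRA. It followed the order of Col1a1, with the same overlap. The log2 fold change was -0.56 ± 0.40 (edgeR adjusted p of 0.795), and -0.85 ± 0.17 in the set-adjusted fit (edgeR adjusted p of 0.067). Col3a1 (chromosome 1, 45311538 to 45349706), a homotrimer, measured 376, 661 and 461 CPM with DMSO and 555, 331 and 242 CPM with ATRA. ATRA minus DMSO was, on the log2 scale, -0.41 ± 0.35, with an edgeR adjusted p of 0.803, and in the set-adjusted fit it was -0.68 ± 0.20, with an edgeR adjusted p of 0.182. ATRA1 again lay above 2 of the DMSO libraries. A miRNA gene lies in 141 bases of its exons on the same strand, and reads of the 2 cannot be told apart there. With 1 library left out in turn, the fold change ranged from -1.09 (without ATRA1) to -0.09 (without DMSO2) for Col1a1, and -0.32 without ATRA3. Over the same libraries it ranged from -0.92 to -0.13 for Col1a2 and from -0.78 to -0.14 for Col3a1, where it was -0.32 and -0.17 without ATRA3.

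Col2a1, the fibrillar collagen that cartilage is known for, separated the groups. Col2a1 (ENSMUSG00000022483, chromosome 15, 97975602 to 98004695, minus strand) measured 114, 287 and 120 CPM in DMSO1 to DMSO3 and 101, 53.5 and 36.8 CPM in ATRA1 to ATRA3. All ATRA libraries lay below all DMSO libraries, with ATRA1 close under DMSO1. The fold change on the log2 scale was -1.45 ± 0.50 (edgeR adjusted p of 0.795), and -1.79 ± 0.22 in the set-adjusted fit (edgeR adjusted p of 0.0119). Without DMSO2 and with no covariate it was -0.865. Within the sets the difference was -1.97 in set 1 and -1.67 in set 2. Of the 6 chondrocyte markers chosen, 4 were listed and 2 passed the filter, and the 4 summed to between 3.43 and 4.06 CPM with DMSO and between 1.52 and 2.61 CPM with ATRA. Sox9, the transcription factor that drives Col2a1 in cartilage, measured 1.96, 2.55 and 1.72 CPM with DMSO and 0.500, 0.571 and 1.02 CPM with ATRA, and its edgeR adjusted p was 0.426. Comp measured 1.47, 1.06 and 1.99 CPM with DMSO and 1.28, 0.507 and 0.682 CPM with ATRA, with overlapping groups. Acan, the cartilage proteoglycan, had 1 count in DMSO3 and 0 in the other libraries. Matn3, also below the filter, had 0, 6 and 4 counts in DMSO1 to DMSO3 and 15, 7 and 2 in ATRA1 to ATRA3. The part of these markers in the level of Col2a1 was not tested.

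Collagen V starts fibrils and sets their width, with chains from Col5a1, Col5a2 and, in some tissues, Col5a3. Col5a1 (ENSMUSG00000026837, chromosome 2, 27886425 to 28039514, plus strand) measured 249, 511 and 261 CPM with DMSO and 242, 133 and 91.4 CPM with ATRA. The groups did not overlap, although ATRA1 and DMSO1 were close. For this gene the log2 fold change was -1.13 ± 0.43 (edgeR adjusted p of 0.795), and -1.46 ± 0.21 in the set-adjusted fit (edgeR adjusted p of 0.0183). Without DMSO2 and with no covariate it was -0.70. Noncoding transcripts on the other strand share 99 and 113 bases with its exons. Col5a2 (chromosome 1, 45374321 to 45503282), the partner chain, measured 174, 375 and 181 CPM with DMSO and 285, 198 and 133 CPM with ATRA. Here only ATRA3 lay below all DMSO libraries. This was a log2 fold change of -0.24 ± 0.39 (edgeR adjusted p of 0.877), and -0.53 ± 0.14 in the set-adjusted fit (edgeR adjusted p of 0.149), and with no covariate it ranged from -0.53 without ATRA1 and -0.01 without ATRA3 to 0.22 without DMSO2. Col5a3 (ENSMUSG00000004098, chromosome 9, 20770050 to 20815067) measured 4.76, 19.9 and 5.09 CPM with DMSO and 6.11, 2.47 and 1.09 CPM with ATRA. DMSO2 stood far above the other libraries, and the groups overlapped through ATRA1. The log2 fold change was -1.61 ± 0.79 (edgeR adjusted p of 0.795), and -2.19 ± 0.33 in the set-adjusted fit (edgeR adjusted p of 0.0230). With no covariate it was -0.58 without DMSO2 and -2.45 without ATRA1.

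Collagen XI, the minor fibrillar collagen of cartilage, has chains from Col11a1 and Col11a2. Col11a1 measured 9.67, 12.5 and 11.6 CPM with DMSO and 8.50, 7.29 and 4.78 CPM with ATRA, with no overlap. ATRA minus DMSO was, on the log2 scale, -0.71 ± 0.25 (edgeR adjusted p of 0.795), and -0.88 ± 0.18 in the set-adjusted fit (edgeR adjusted p of 0.0663). Col11a2 measured 4.76, 3.67 and 4.68 CPM with DMSO and 2.78, 1.33 and 4.50 CPM with ATRA, and ATRA3 overlapped the DMSO libraries. Of the remaining fibrillar genes, Col27a1 measured 5.46, 5.85 and 5.36 CPM with DMSO and 3.67, 2.41 and 3.89 CPM with ATRA, without overlap and with a log2 fold change of -0.74 ± 0.24 (edgeR adjusted p of 0.795). In the set-adjusted fit Col27a1 differed by -0.71 ± 0.22 (edgeR adjusted p of 0.214). Col24a1 measured between 2.52 and 4.04 CPM with DMSO and between 1.23 and 3.0 CPM with ATRA, its groups overlapped, and its log2 fold change was -0.40, or -0.73 in the set-adjusted fit.

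In collagen VI, all 3 tested chains were lower in every ATRA library than in every DMSO library, as 6.87% of all tested genes were. Its classical trimer joins the chains of Col6a1, Col6a2 and Col6a3, and mutations of these genes cause muscle disease. The summed level of the class was 329, 528 and 324 CPM in DMSO1 to DMSO3 and 240, 190 and 121 CPM in ATRA1 to ATRA3.

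Col6a1 (ENSMUSG00000001119, chromosome 10, 76708792 to 76726168, minus strand) measured 146, 279 and 152 CPM with DMSO and 130, 105 and 62.6 CPM with ATRA. ATRA1 lay just under DMSO1 and DMSO3, and DMSO2 well above all. For this gene the log2 fold change was -0.95 ± 0.35 (edgeR adjusted p of 0.795), and -1.25 ± 0.10 in the set-adjusted fit (edgeR adjusted p of 0.00227). Without DMSO2 and with no covariate it was -0.57. Col6a2 (ENSMUSG00000020241, chromosome 10, 76595762 to 76623630, minus strand) measured 108, 148 and 102 CPM with DMSO and 65.2, 55.2 and 38.4 CPM with ATRA. The groups did not overlap, but the gap in CPM between them was narrower than the spread among the DMSO libraries. This was a log2 fold change of -1.17 ± 0.24 (edgeR adjusted p of 0.334), and -1.37 ± 0.10 in the set-adjusted fit (edgeR adjusted p of 0.00200). DESeq2 without a covariate gave Col6a2 an adjusted p of 0.00383.

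Col6a3 (ENSMUSG00000048126, chromosome 1, 90765923 to 90843971, minus strand), the longest of the chains, measured 74.5, 99.8 and 69.4 CPM with DMSO and 44.6, 28.9 and 20.0 CPM with ATRA. No ATRA library reached the lowest DMSO library. The fold change on the log2 scale was -1.38 ± 0.31 (edgeR adjusted p of 0.385), and -1.63 ± 0.18 in the set-adjusted fit (edgeR adjusted p of 0.00840). DESeq2 without a covariate gave Col6a3 an adjusted p of 0.00708. Within the sets the differences were -1.26 and -1.25 for Col6a1, -1.30 and -1.45 for Col6a2, and -1.47 and -1.84 for Col6a3, in set 1 and set 2. The other collagen VI chains, Col6a4, Col6a5 and Col6a6, did not pass the filter, and their highest count in a library was 25, in DMSO2 for Col6a4.

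**Figure D3:**
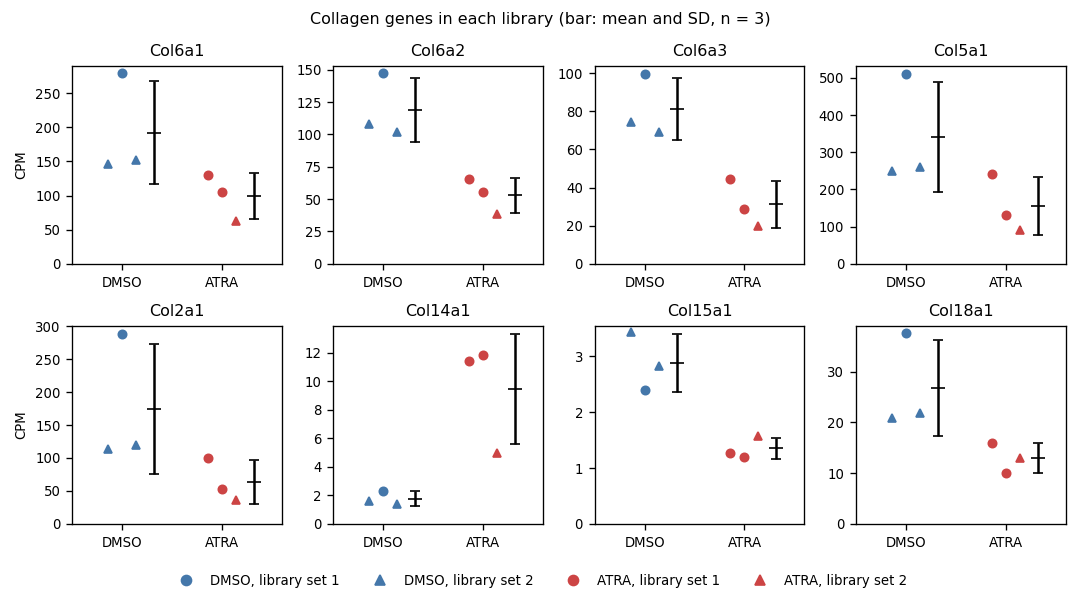
Level in CPM of 8 collagen genes in each library, from 0; points are libraries, with shape giving the library set, and the bar beside them gives the mean and SD of the 3 libraries of a group. In each panel the ATRA points lie on one side of the DMSO points, above them for Col14a1 and below them for the other genes.

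The sequence upstream of the start sites of the collagen VI chains, Col5a1 and Col5a3 is shown because these genes are 5 of the 6 called lower in the set-adjusted fit. Col2a1, the other one, is not shown because no promoter was listed for it. RefSeq (GRCm38.p6) gave promoters for 33 of the 42 collagen genes. Searched on both strands in the 250 bases before each start, the letters GGGCGG (bound by Sp1, and CCGCCC when read on the other strand) stood in 62.9% of 35 collagen promoters and in 32.7% of 32851 promoters of all genes. TATAAA (the TATA box) stood in 11.4% and 12.4%, and CCAAT in 34.3% and 33.8%. The retinoic acid receptor half-sites AGGTCA and AGTTCA stood in 20% and 5.71% of collagen promoters, and in 14% and 11.8% of all. No match printed here overlaps another. Capitals mark matches in the gene's direction, 5′ to 3′. Col5a1 (chr2:27886175-27886424, plus strand), Col5a3 (chr9:20815068-20815317, minus strand) and Col6a2 (chr10:76623631-76623880, minus strand) held matches. Col6a2 has a second listed start, whose window (chr10:76623405-76623654) held 3 GGGCGG matches and lies mostly in annotated exon, so it is not printed. The windows of Col6a1 (chr10:76726169-76726294, minus strand, cut to 126 bases that lie outside annotated exons) and Col6a3 (chr1:90843972-90844221, minus strand) held none. The printed bases were 76.4% G or C for Col5a1, 62.8% for Col5a3, 51.6% for Col6a1, 59.2% for Col6a2 and 57.2% for Col6a3.
Col5a1: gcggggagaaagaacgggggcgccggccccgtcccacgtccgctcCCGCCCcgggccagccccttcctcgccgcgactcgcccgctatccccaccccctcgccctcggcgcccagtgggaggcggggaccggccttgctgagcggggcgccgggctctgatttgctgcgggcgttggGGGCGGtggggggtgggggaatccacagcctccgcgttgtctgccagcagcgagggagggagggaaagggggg
Col5a3: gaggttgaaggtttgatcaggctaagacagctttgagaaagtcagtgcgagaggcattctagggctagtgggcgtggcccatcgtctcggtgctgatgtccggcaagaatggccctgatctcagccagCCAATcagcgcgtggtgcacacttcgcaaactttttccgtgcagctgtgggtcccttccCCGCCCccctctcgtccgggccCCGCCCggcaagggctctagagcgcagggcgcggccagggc
Col6a1: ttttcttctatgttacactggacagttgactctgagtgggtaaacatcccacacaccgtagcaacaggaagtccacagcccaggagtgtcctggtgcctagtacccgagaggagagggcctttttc
Col6a2: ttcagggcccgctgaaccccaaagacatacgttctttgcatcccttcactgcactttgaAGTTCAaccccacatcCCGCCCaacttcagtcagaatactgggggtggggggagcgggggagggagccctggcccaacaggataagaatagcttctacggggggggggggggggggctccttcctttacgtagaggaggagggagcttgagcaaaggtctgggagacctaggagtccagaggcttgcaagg
Col6a3: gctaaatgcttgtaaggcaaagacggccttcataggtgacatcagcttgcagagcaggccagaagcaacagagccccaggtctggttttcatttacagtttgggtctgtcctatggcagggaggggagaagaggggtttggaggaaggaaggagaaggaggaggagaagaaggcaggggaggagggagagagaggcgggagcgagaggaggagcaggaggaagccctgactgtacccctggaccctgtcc

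Basement membrane collagens did not differ in 1 direction as a group. Collagen IV had 3 of 6 genes tested, with a median log2 fold change of 0.07, or -0.23 in the set-adjusted fit, and multiplexins had both genes tested, with a median of -1.06. Col4a1 (chromosome 8, 11198423 to 11312826, minus strand) measured 135, 355 and 141 CPM with DMSO and 331, 194 and 136 CPM with ATRA. DMSO2 and ATRA1 were highest and the groups overlapped. ATRA minus DMSO was, on the log2 scale, 0.07 ± 0.47 with a 95% interval from -1.07 to 1.20 (edgeR adjusted p of 0.977), and -0.23 ± 0.20 in the set-adjusted fit (edgeR adjusted p of 0.579). Col4a2 (chromosome 8, 11312805 to 11449287, plus strand), its partner in the common collagen IV trimer, measured 116, 271 and 115 CPM with DMSO and 240, 168 and 101 CPM with ATRA. It followed the same order as Col4a1 at the top. For this gene the log2 fold change was 0.02 ± 0.44 with a 95% interval from -1.03 to 1.07 (edgeR adjusted p of 0.992), and -0.30 ± 0.14 in the set-adjusted fit (edgeR adjusted p of 0.355). With 1 library left out, Col4a1 ranged from -0.33 (without ATRA1) to 0.685 (without DMSO2), and Col4a2 from -0.29 to 0.57. Both were also below 0 without DMSO1 or DMSO3. The genes lie head to head and share 22 exon bases. Endothelial cells also make this collagen, and of 8 endothelial markers chosen, 7 were listed and 3 passed the filter, with sums from 7.39 to 17.2 CPM with DMSO and from 10.3 to 17.5 CPM with ATRA. The part of such cells in these levels was not tested.

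Col4a5, a chain of the basement membrane of the kidney, lung and other tissues, measured 9.39, 12.3 and 9.42 CPM with DMSO and 18.8, 13.0 and 13.2 CPM with ATRA. All ATRA libraries lay above all DMSO libraries, by a small margin for ATRA2 and ATRA3 over DMSO2. This was a log2 fold change of 0.53 ± 0.22 (edgeR adjusted p of 0.795), and 0.43 ± 0.17 in the set-adjusted fit (edgeR adjusted p of 0.305). Among the multiplexins, Col18a1, whose end fragment is endostatin, measured 20.9, 37.6 and 21.9 CPM with DMSO and 16.0, 10.1 and 13.0 CPM with ATRA, without overlap. The log2 fold change was -1.04 ± 0.29 (edgeR adjusted p of 0.651), and -1.14 ± 0.23 in the set-adjusted fit (edgeR adjusted p of 0.0649). Col15a1 measured 3.43, 2.39 and 2.82 CPM with DMSO and 1.28, 1.20 and 1.57 CPM with ATRA, also without overlap. ATRA minus DMSO was, on the log2 scale, -1.09 ± 0.26 (edgeR adjusted p of 0.450), and in this gene DMSO2 was the lowest and not the highest DMSO library. In the set-adjusted fit Col15a1 differed by less, at -0.96 ± 0.24 (edgeR adjusted p of 0.122).

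Col14a1, a FACIT collagen that binds the surface of collagen I fibrils, stood higher with ATRA. Col14a1 (ENSMUSG00000022371, chromosome 15, 55307750 to 55520803, plus strand) had 23, 44 and 20 counts in DMSO1 to DMSO3 and 206, 187 and 73 counts in ATRA1 to ATRA3. These were 1.61, 2.34 and 1.38 CPM with DMSO and 11.5, 11.9 and 4.98 CPM with ATRA. ATRA3 was the lowest ATRA library and still lay above DMSO2. The fold change on the log2 scale was 2.40 ± 0.41 (edgeR adjusted p of 0.233), and 2.05 ± 0.21 in the set-adjusted fit (edgeR adjusted p of 0.00575). DESeq2 without a covariate gave Col14a1 an adjusted p of 3.84e-05. Within the sets it was higher by 2.26 in set 1 and 1.66 in set 2.

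No other FACIT gene was called. The class had 5 of 8 listed genes tested, with a median of -0.22, or -0.07 in the set-adjusted fit. Col12a1, the close relative of Col14a1 and the most abundant of the class, measured 127, 276 and 145 CPM with DMSO and 257, 227 and 104 CPM with ATRA. For this gene the log2 fold change was 0.10, with a 95% interval from -0.90 to 1.10, and -0.29 in the set-adjusted fit, with an interval from -0.52 to -0.05 (edgeR adjusted p of 0.257). The difference was -0.19 in set 1 and -0.39 in set 2, and the order of its libraries was that of the library sets. Col16a1 measured 15.1, 27.5 and 15.5 CPM with DMSO and 17.9, 9.64 and 11.6 CPM with ATRA, with a log2 fold change of -0.57 and overlapping groups. Col9a3 and Col20a1 stayed between 0.697 and 3.71 CPM in all libraries, with intervals that spanned 0, and in the set-adjusted fit Col9a3 differed by 0.14 in place of -0.22 and Col20a1 by -0.07 in place of -0.60. Exons of Col9a3 share 234 bases with Tcfl5 on the other strand.

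Short-chain collagens VIII and X form hexagonal networks, and the fold changes of their genes had different signs. Col8a1 measured 67.4, 132 and 70.1 CPM with DMSO and 137, 108 and 66.5 CPM with ATRA. Its groups overlapped, and the log2 fold change was 0.21 with a 95% interval from -0.63 to 1.05, or -0.08 in the set-adjusted fit. Col8a2, the second chain, measured 2.87, 2.13 and 3.30 CPM with DMSO and 1.22, 1.08 and 1.43 CPM with ATRA, without overlap. This was a log2 fold change of -1.15 ± 0.28 (edgeR adjusted p of 0.464), and -0.99 ± 0.25 in the set-adjusted fit (edgeR adjusted p of 0.125). Col10a1, known from growth cartilage, measured 3.01, 3.46 and 2.61 CPM with DMSO and 4.28, 3.23 and 4.71 CPM with ATRA, and its log2 fold change was 0.42 with an interval from -0.15 to 1.00. Col7a1, of the anchoring fibrils of skin, measured between 5.18 and 5.96 CPM with DMSO and between 3.17 and 6.73 CPM with ATRA. Col23a1, a transmembrane collagen, measured between 2.80 and 5.64 CPM with DMSO and between 2.59 and 6.02 CPM with ATRA, and its log2 fold change was 0.19, or -0.14 in the set-adjusted fit.

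The 13 genes below the filter were Col4a3, Col4a4, Col4a6, Col6a4, Col6a5, Col6a6, Col9a2, Col17a1, Col19a1, Col22a1, Col25a1, Col26a1 and Col28a1. None had more than 25 counts in a library, and their totals over the 6 libraries ran from 1 for Col6a6 to 48 for Col17a1. They were not tested for a difference.

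Inside both library sets, 20 of the 29 tested collagen genes lay lower with ATRA. In set 1 the median difference of the collagens (mean log2 CPM of ATRA1 and ATRA2 minus DMSO2) was -0.66, and in set 2 (ATRA3 minus the mean of DMSO1 and DMSO3) it was -0.46, where all tested genes had medians of -0.00219 and -0.0177. For Col5a3 the differences were -2.32 and -2.05 in set 1 and set 2, for Col5a1 -1.51 and -1.48, and for Col1a1 -1.05 and -0.87. Col4a1 differed by -0.49 in set 1 and by -0.02 in set 2, and Col18a1 by -1.56 and -0.71. Whether the sets differed from each other was not tested.

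**Figure D4:**
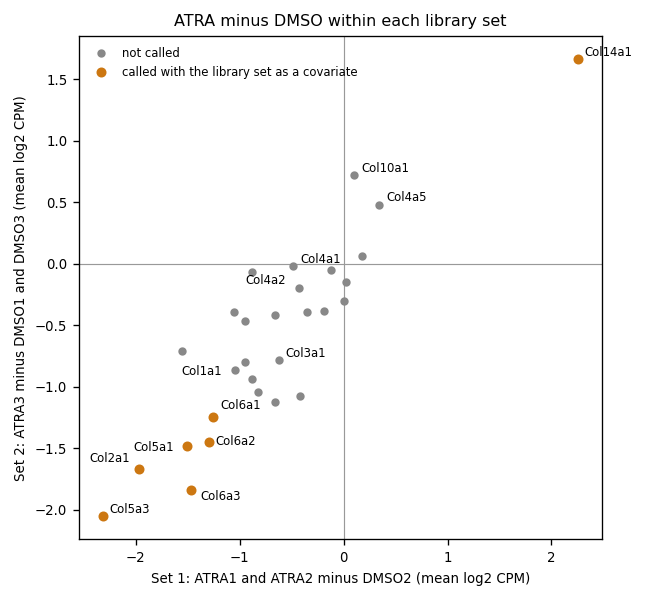
Difference of mean log2 CPM between ATRA and DMSO libraries within library set 1 (horizontal axis) and within library set 2 (vertical axis) for the 29 tested collagen genes, with genes called in the covariate fit in orange. The 6 genes called lower lie at the lower left and Col14a1 at the upper right, at 2.26 and 1.66.

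Since chains are used in fixed trimers, ratios of chains per kilobase were set side by side in each library. The 10 pairs were chosen with values known for some, and the smallest two-sided exact permutation p that 3 against 3 libraries can give is 0.1. The ratio of Col5a1 to Col5a2 was 1.13, 1.07 and 1.14 in DMSO1 to DMSO3 and 0.669, 0.527 and 0.543 in ATRA1 to ATRA3. The 2 groups were well apart, with a spread inside each group that was small beside the gap (1.11 ± 0.034 against 0.580 ± 0.078, SD, n = 3, exact permutation p of 0.1, 0.333 adjusted over 10 pairs). The ratio of Col6a3 to Col6a1 was 0.207, 0.145 and 0.185 with DMSO and 0.139, 0.111 and 0.130 with ATRA, with a narrow gap between DMSO2 and ATRA1 (exact permutation p of 0.1). The ratio of Col5a3 to Col5a2 was also lower in each ATRA library, at 0.0089 to 0.0232 against 0.0297 to 0.0576 (exact permutation p of 0.1).

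Other chain ratios overlapped between the groups. Col1a1 to Col1a2 was 1.01 ± 0.049 with DMSO and 0.984 ± 0.112 with ATRA (SD, n = 3, exact permutation p of 0.6). The common collagen I trimer holds more Col1a1 than Col1a2 chains. Col4a1 to Col4a2 was 1.20 ± 0.070 and 1.26 ± 0.119 (SD, n = 3, exact permutation p of 0.6). Col6a1 to Col6a2 was 1.52 ± 0.272 and 1.78 ± 0.184 (SD, n = 3, exact permutation p of 0.2). Col8a1 to Col8a2 was 19.9, 52.5 and 18 in DMSO1 to DMSO3 and 94.8, 84.9 and 39.4 in ATRA1 to ATRA3, a log2 difference of 1.36 (exact permutation p of 0.2). It was higher with ATRA inside both library sets, while DMSO2 lay above ATRA3. Col11a1 to Col2a1 differed by 0.69 on the log2 scale (exact permutation p of 0.2). The remaining pairs, Col4a5 to Col4a2 and Col1a1 to Col3a1, differed by 0.46 (exact permutation p of 0.6) and -0.15 (exact permutation p of 0.7). Levels per kilobase rest on the transcript length chosen for each gene, which shifts all libraries of a ratio alike.

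**Figure D5:**
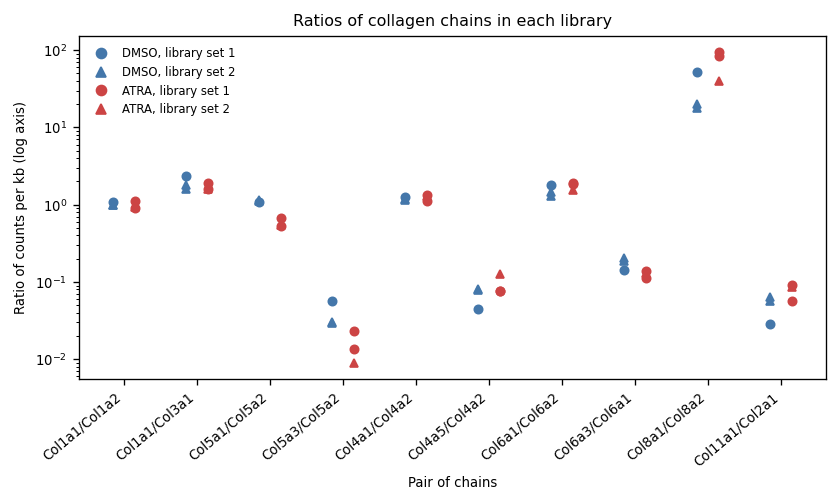
Ratio of counts per kilobase for 10 pairs of collagen chains in each library, on a log axis; colour gives the group and shape the library set. For Col5a1 to Col5a2 the DMSO points lie together near 1.11 and the ATRA points near 0.580, and for Col1a1 to Col1a2 all points lie near 1.

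Collagen chains need enzymes and partners to become fibrils, and 49 of 56 listed genes of such lists were tested. The median log2 fold change over these was -0.18, with 31 below 0 and 18 above, and none was called in edgeR without a covariate. At an unadjusted p under 0.05 in edgeR, 2 of the 49 stood lower and 3 higher, where 2.36% and 2.89% of all tested genes did so. In the set-adjusted fit, 4 of the 49 were called lower (Itga11, Prelp, Fmod and P4ha3) and 1 higher (Ogn) in edgeR, where 0.795% and 0.744% of all tested genes were, and the median was -0.29.

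Of the 15 genes that hydroxylate or glycosylate collagen, 11 lay below 0, with a median of -0.18. P4ha3, a catalytic subunit of prolyl 4-hydroxylase, measured 12.0, 23.2 and 11.3 CPM with DMSO and 10.8, 7.99 and 7.23 CPM with ATRA. The log2 fold change was -0.84 ± 0.33 (edgeR adjusted p of 0.795), and -1.02 in the set-adjusted fit (edgeR adjusted p of 0.0478). The most abundant genes per kilobase, P4hb and Ppib, differed by 0.06 and -0.09 on the log2 scale, or by -0.14 and -0.20 in the set-adjusted fit. Of 8 folding and secretion genes, 7 lay below 0, with a median of -0.21. Serpinh1, the collagen chaperone HSP47, differed by -0.19 ± 0.46, or -0.53 in the set-adjusted fit, and Sec24d, a coat protein of the vesicles that leave the endoplasmic reticulum, by -0.26 ± 0.13.

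For the removal of propeptides, 6 of 8 genes were tested and 4 lay below 0. Bmp1, which cuts off the C-propeptide, and Pcolce, its enhancer, differed by -0.39 and -0.23, or by -0.66 and -0.37 in the set-adjusted fit. Adamts14, which cuts the N-propeptide, measured 1.82, 5.80 and 2.48 CPM with DMSO and 10.9, 7.42 and 5.66 CPM with ATRA, and ATRA3 lay just under DMSO2. ATRA minus DMSO was, on the log2 scale, 1.24 ± 0.48 (edgeR adjusted p of 0.795). The 5 crosslinking enzymes had a median of 0.13, or -0.27 in the set-adjusted fit, and Lox, the most abundant, measured 463, 1101 and 497 CPM with DMSO and 754, 664 and 342 CPM with ATRA. For this gene the log2 fold change was -0.23 (edgeR adjusted p of 0.898), and -0.56 in the set-adjusted fit (edgeR adjusted p of 0.0277), under 1.5-fold. Loxl2 differed by 0.16, or -0.27 in the set-adjusted fit.

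Among proteins that sit on fibrils, 8 of 11 were tested, with a median of -0.16. Ogn, a small leucine-rich proteoglycan that binds fibrils, measured 28.1, 27.7 and 30.9 CPM with DMSO and 93.9, 119 and 69.0 CPM with ATRA. All ATRA libraries lay far above the narrow range of the DMSO libraries. This was a log2 fold change of 1.70 ± 0.21 (edgeR adjusted p of 0.116), and 1.58 in the set-adjusted fit (edgeR adjusted p of 0.00897). Dcn, decorin of the same family, was low but without overlap, at 2.82 to 3.43 CPM with DMSO and 3.89 to 5.01 CPM with ATRA. Fmod, fibromodulin, measured 42.2, 60.5 and 45.9 CPM with DMSO and 39.9, 34.9 and 28.8 CPM with ATRA. The fold change on the log2 scale was -0.52 ± 0.19 (edgeR adjusted p of 0.795), and -0.66 in the set-adjusted fit (edgeR adjusted p of 0.0243). Prelp, of the same family, had overlapping groups and differed by -0.61 ± 0.40 (edgeR adjusted p of 0.795), and by -0.98 in the set-adjusted fit (edgeR adjusted p of 0.00524). The most abundant genes per kilobase, Sparc and Fn1, differed by -0.18 and -0.21 in the fit without a covariate. In the set-adjusted fit they differed by -0.52 and -0.51, with edgeR adjusted p of 0.0435 and 0.0290, and were not called because they lay under 1.5-fold.

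Of the collagen receptors and uptake genes, 7 of 9 were tested, 5 of them above 0, with a median of 0.20. Itga11, the integrin chain that binds collagen I, measured 111, 322 and 123 CPM with DMSO and 175, 134 and 57.3 CPM with ATRA, with overlapping groups. ATRA minus DMSO was, on the log2 scale, -0.60 ± 0.54 (edgeR adjusted p of 0.807), and -1.05 in the set-adjusted fit (edgeR adjusted p of 0.00857). Lair1, an inhibitory collagen receptor of leukocytes, measured 60.1 to 79.8 CPM with DMSO and 71.4 to 83.1 CPM with ATRA.

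Marker genes of the stromal cells had fold changes of both signs. Of 11 tested mesenchymal markers, 4 lay below 0 and 7 above, with a median of 0.08, or -0.13 in the set-adjusted fit, which called 1 lower (Ly6a) and 1 higher (Lepr) in edgeR, where 0.795% and 0.744% of all tested genes were. At an unadjusted p under 0.05 in edgeR without a covariate, 2 of the 11 stood lower (Ly6a and Kitl) and 2 higher (Lepr and Cxcl12), where 2.36% and 2.89% of all tested genes did so, and the groups did not overlap for these 4. Lepr, the leptin receptor of marrow stroma, measured 2.50, 3.04 and 9.48 CPM with ATRA, a log2 fold change of 3.35, and Ly6a measured 20.3, 19.8 and 17.9 CPM, a log2 fold change of -0.90. Cxcl12, a chemokine of marrow stroma, measured 368 to 443 CPM with DMSO and 462 to 578 CPM with ATRA, and Kitl, the ligand of Kit, 10.5 to 13.0 CPM with DMSO and 7.34 to 8.24 CPM with ATRA. Other markers overlapped, of which Prrx1 measured 50.6, 104 and 60.0 CPM with DMSO and 72.8, 76.7 and 43.1 CPM with ATRA, and Pdgfrb measured 60.3, 126 and 62.4 CPM with DMSO and 140, 107 and 72.7 CPM with ATRA. Of the 11, 9 were higher in DMSO2 than in DMSO1 and DMSO3, as Col1a1, Col1a2 and Col3a1 were, and the exceptions were Ly6a (34.1 CPM in DMSO2, 34.6 and 39.5 in the others) and Lepr (0.479 CPM, 0.490 and 0.481). The 14 macrophage markers had a median of -0.13, with 0 called in edgeR and 0 at an unadjusted p under 0.05. The part of a changed make-up of the cultures in the collagen levels was not tested.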

How the data were processed

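There were 6 RNA libraries of BMSCs, 3 with DMSO and 3 with ATRA. The authors deposited raw read counts per gene, 1 table per library, not normalized. The submitters' processing notes name Bowtie2 2.2.3 and mm10, and the counting program and strand setting are not given in the sources used here. Libraries were grouped by their titles.

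In the tables, 24 names turned into dates were restored, and 25706 of 25722 genes, among them all 42 collagen genes, were found in GENCODE M21 (GRCm38), which gave coordinates and the length of the transcript with the longest coding sequence. Counts were tested in R 4.3.3 with edgeR 4.0.16 (TMM, filterByExpr, quasi-likelihood F test, no covariate, Benjamini-Hochberg over all 13842 genes) and called at an adjusted p under 0.05 and at least 1.5-fold. Errors and 95% intervals were derived from the same test, and the prior count of log2 CPM was 2. Scripts were tested on simulated data. Alternatives were DESeq2 1.42.0, the library set as a covariate, the replicate block, other scalings, filters and thresholds, and leaving out each library. Leaving out libraries in the covariate fit was added after seeing the data.

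Collagen genes given in full were the 6 highest per kilobase, those with an unadjusted p under 0.05, those called in the set-adjusted fit, and their partner chains. Other genes of the lists were named by the same criteria, with 2 of the highest in each list, and marker genes were named for their role. The members, lists and library sets were chosen with earlier results of these data known. Libraries held 14737636 to 18511905 counts, and intervals on counts cover counting error only. No library pair of a group agreed within sampling noise, so all were kept. The chi-square per df was 3.53 for DMSO1 against DMSO3, by far the closest pair, and 19.3 to 57.9 for the other pairs of a group. Whether DMSO1 and DMSO3 came from separate cultures is not given.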

Additional observations from a re-analysis of the deposited data

How the results depend on the processing

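Without a covariate, edgeR called 0 collagen genes higher and 0 lower under each alternative scaling, filter, threshold, left-out library and the replicate block. DESeq2 called 1 higher and 2 lower, and the library set as a covariate 1 higher and 6 lower. Leaving out 1 library at a time from the covariate fit gave 0 to 1 called higher and 2 to 10 called lower. The median log2 fold change of the collagens, -0.57, stayed below 0, from -0.78 to -0.22 without 1 library (-0.22 without DMSO2). With the replicate block it was -0.57. Whether replicate numbers pair the libraries is not given. Deviations of same-numbered libraries correlated at -0.51, 0.34 and 0.57 for replicates 1, 2 and 3, which does not settle it. The block changed no call of a collagen gene. Of the 19 collagen genes given in full, 3 changed direction under some alternative. With the library set as a covariate, Col4a1 was -0.23 and Col4a2 was -0.30, and of the other tested collagens Col8a1 (-0.08), Col9a3 (0.14), Col12a1 (-0.29) and Col23a1 (-0.14) also changed sign, 6 of 29 in all. Leaving out 1 library, Col4a1 ranged from -0.33 to 0.685, Col4a2 from -0.29 to 0.57 and Col5a2 from -0.53 to 0.22. The cause was not tested. Low counts limit the 13 untested genes.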
